A study of Homo sapiens with 18 samples.

Results

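MYC, its partners and its antagonists were followed as a set of 10 genes in HAP1 cells, a near-haploid human line derived from a chronic myeloid leukaemia culture. The set was taken by gene name, with earlier results of these data known, as the MYC-MAX-MXD transcription factor network together with the MYC target ODC1. It holds the activators MYC and MYCN, their obligate partner MAX, the antagonists MXD1, MXD3, MXD4, MNT and MGA, the ubiquitin ligase subunit FBXW7 and ODC1. All 10 genes were found among the 59251 genes counted, and all 10 were among the 21615 genes that passed the filter on low counts.

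MYC is a transcription factor that binds DNA only as a heterodimer with MAX, at the sequence CACGTG and close variants called E-boxes, and it raises the expression of genes of ribosome assembly, nucleotide synthesis and growth. The MXD proteins, MNT and MGA pair with the same MAX and bind the same sites, where they recruit corepressors. MYC protein is short-lived because FBXW7, the substrate-binding part of an SCF ubiquitin ligase, marks it for destruction, and MYC mRNA is itself unstable, so its level follows the growth state of a culture closely.

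RNA sequencing was done on 18 libraries in 6 groups of 3. SARS2 encodes the mitochondrial seryl-tRNA synthetase. In the line called the SARS2 line here, the genotype is given as delSARS2+SARS2-1xFLAG, a deletion of SARS2 with a FLAG-tagged SARS2 copy. The series' design calls SARS2 depleted where doxycycline was withdrawn, and the labels do not say what drives the copy. Its groups had 3, 6 or 9 days without doxycycline, or 15 ng/mL doxycycline. The labels give no harvest day for that doxycycline group, so withdrawal and time in culture cannot be told apart in comparisons with it. Unmodified parental HAP1 cells were grown with no doxycycline, for a time the labels do not give, or with 15 ng/mL doxycycline. The labels do not say whether the line is 1 clone or whether replicates were separate cultures, so p-values measure the spread between these libraries, which may be technical.

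The libraries held 66850705 to 111123481 counts each. SARS2 itself did not fall where doxycycline was withdrawn: it had 30.5, 31.9 and 32.4 CPM, the counts scaled to library size, in libraries labelled day 3, 23.2, 25.8 and 25.0 CPM in those labelled day 6 and 43.3, 34.0 and 48.1 CPM in those labelled day 9, against 23.5, 25.2 and 23.9 CPM with doxycycline. By edgeR's test against doxycycline, SARS2 rose in libraries labelled day 3 by 0.38 ± 0.10 (log2, adjusted p = 0.014) and day 9 by 0.79 ± 0.10 (adjusted p = 2.7e-06). The day 6 value of 0.03 ± 0.10 did not pass (adjusted p = 0.86). With doxycycline, SARS2 was lower in the SARS2 line than in parental cells, with a log2 fold change of -0.87 ± 0.10 (adjusted p = 3.5e-06). The counts do not separate the tagged copy from the deleted gene's transcript, and the groups are called by their labels throughout, so that a bare day number stands for the libraries so labelled. All 10 haematopoietic markers stayed under 1 CPM in every library, with GATA1, CD3E and MPO among those at 0. Mesenchymal markers, of which 4 of 12 stayed under 1 CPM, summed to 682 to 1263 CPM. Epithelial markers, of which 6 of 10 stayed under 1 CPM, summed to 60.5 to 69.5 CPM in libraries labelled day 9, against 38.8 to 43.0 CPM with doxycycline in the same line. Of 5 epithelial markers tested at day 9, 1 rose, 1 fell and 3 did not pass, with a median log2 fold change of -0.15. KRT18 rose by 0.81 ± 0.10 (log2, adjusted p = 3.5e-06, edgeR), with means of 56.2 CPM against 32.0 CPM with doxycycline. CLDN4 fell by 2.25 ± 0.52 (adjusted p = 0.0016), near the floor, with means of 0.0456 CPM against 0.224 CPM. Mesenchymal markers summed to 960 to 1263 CPM in libraries labelled day 9, against 867 to 942 CPM with doxycycline. Of 10 tested there, 3 rose, among them VIM by 0.44 ± 0.08 (adjusted p = 0.00012), and ZEB1, ZEB2 and COL1A1 fell, with a median of 0.03. VIM made up most of these sums, with means of 869 CPM in libraries labelled day 9 and 642 CPM with doxycycline. Epithelial markers summed to 45.6 to 60.1 CPM in libraries labelled day 6. Of 5 tested at day 6 against doxycycline, 3 rose and none fell, with a median of 0.89, where 28.1% of all tested genes passed. ESRP1 rose there by 0.99 ± 0.12 (adjusted p = 1e-05, edgeR), with means of 11.6 CPM against 5.84 CPM. Of 10 mesenchymal markers tested at day 6, 2 rose and 1 fell, with a median of 0.18. The part of these markers in the day 6 and day 9 results was not tested.

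Across all genes, fold changes followed the genomic span of the gene in some comparisons. Spearman's rho between the log2 fold change and the span, a description across 14598 genes that are not independent, was 0.30 for day 6 against doxycycline, -0.26 for day 9 against doxycycline and 0.23 for the parental comparison. It was strongest for day 9 against day 6, at -0.35, and was 0.26 for day 6 against day 3. The values were -0.05 for day 3 against doxycycline and 0.07 between the lines with doxycycline. Within the set, spans ran from 6.46 kb for MYCN to 216 kb for FBXW7, with MGA at 149 kb and MAX at 96.6 kb. MYC spans 7.52 kb and ODC1 8.36 kb.

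Levels between genes were compared as TPM, which also divides by the exonic length. MYC averaged 799 TPM over the 18 libraries and ODC1 426 TPM, and these were the most abundant of the set. The mean of MYC stood above that of ODC1 in the other 5 groups, but in libraries labelled day 9 ODC1 had 659 ± 58.4 TPM and MYC 445 ± 58.3 TPM (SD, n = 3). MAX averaged 63.5 TPM and MXD3 63.2 TPM, a pair that could not be ordered: in libraries labelled day 9 MAX had 67.0 ± 4.41 TPM and MXD3 52.1 ± 12.6 TPM, whereas with doxycycline in the SARS2 line MAX had 51.3 ± 0.722 TPM and MXD3 66.7 ± 8.10 TPM (SD, n = 3). MXD4 followed with 26.4 TPM. MGA averaged 16.1 TPM and MNT 13.9 TPM, and their order varied: MGA had 19.0 ± 0.562 TPM and MNT 13.4 ± 0.567 TPM in libraries labelled day 3, whereas MGA had 14.8 ± 0.835 TPM and MNT 16.2 ± 1.23 TPM in those labelled day 6 (SD, n = 3). MXD1 averaged 9.41 TPM and MYCN 5.58 TPM. MXD1 had 8.74 ± 1.27 TPM and MYCN 3.17 ± 0.296 TPM in libraries labelled day 9, while in parental cells with doxycycline MXD1, at 4.99 ± 0.054 TPM, lay within the spread of MYCN, at 4.80 ± 0.506 TPM (SD, n = 3). FBXW7 was lowest at 1.68 TPM, a value lowered by the 55762 exonic bases counted for it, since its counts were 1932 to 3383 per library.

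**Figure D1:**
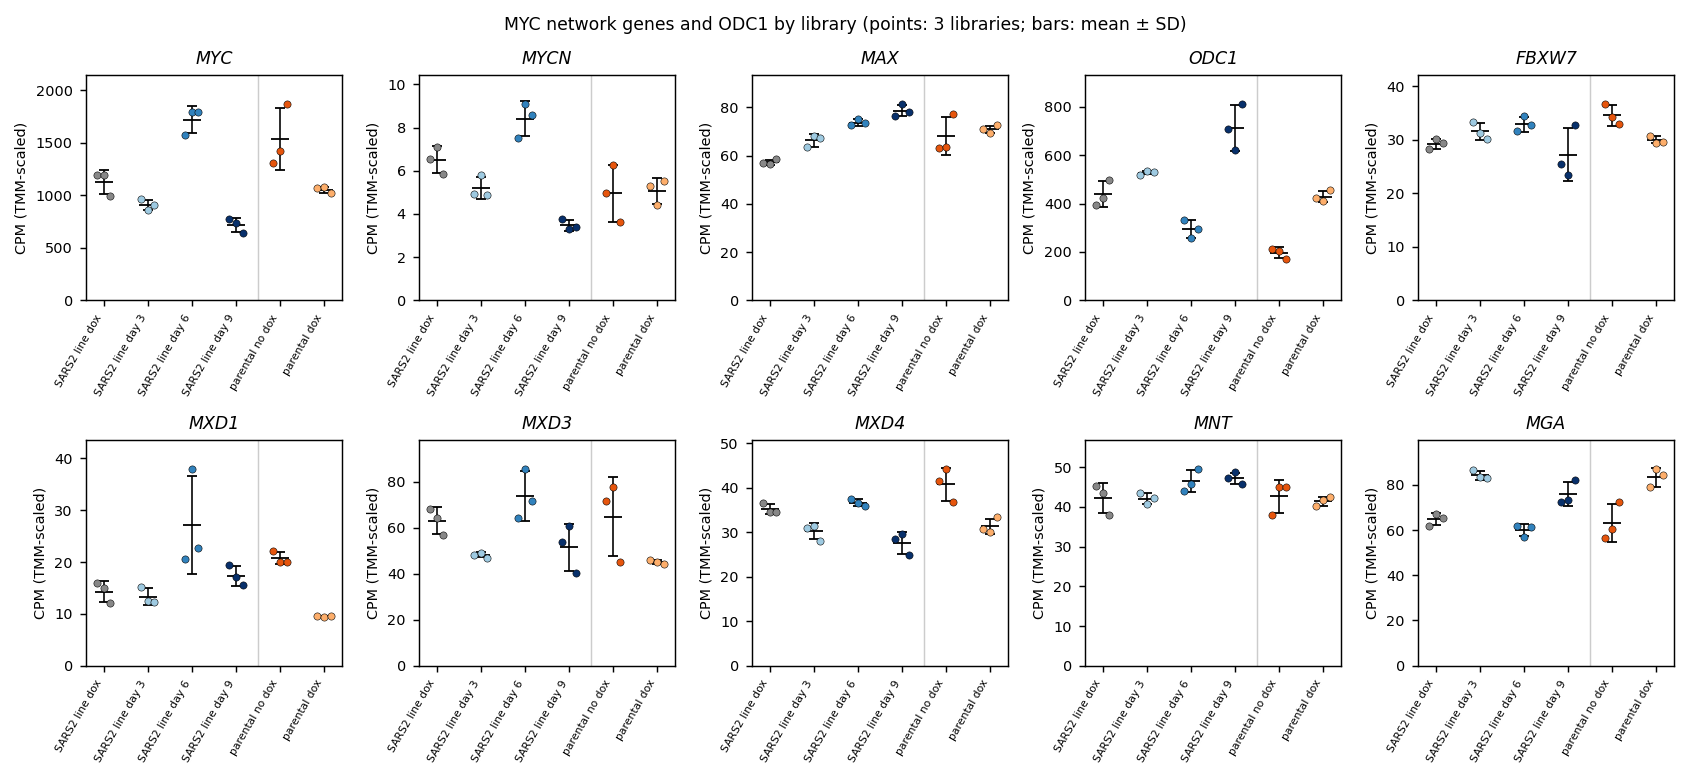
Each panel shows 1 gene on a linear axis of CPM from 0, with the SARS2 line in order of time on the left and the parental line on the right; points are the 3 libraries of a group and bars give the mean and SD. MYC is highest in libraries labelled day 6 and parental cells without doxycycline, ODC1 is lowest in the same groups, and MNT stays between 37.9 and 49.5 CPM throughout.

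MYC mRNA moved up and down along the time course. It had 1190, 1197 and 995 CPM with doxycycline in the SARS2 line, 963, 862 and 904 CPM in libraries labelled day 3, 1572, 1793 and 1795 CPM in those labelled day 6 and 774, 733 and 645 CPM in those labelled day 9. Every library labelled day 6 was above, and every library labelled day 9 below, all 3 with doxycycline, and libraries labelled day 3 also lay below them. In parental cells MYC had 1306, 1425 and 1870 CPM without doxycycline and 1066, 1077 and 1024 CPM with it, groups that did not overlap, and the third library without doxycycline stood highest of all 18.

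By edgeR's quasi-likelihood test with Benjamini-Hochberg adjustment over all tested genes, MYC rose at day 6 with a log2 fold change of 0.61 ± 0.11 (SE, adjusted p = 0.00037) and fell at day 9 by 0.65 ± 0.11 (adjusted p = 5.8e-05), both against doxycycline. The day 3 value of -0.31 ± 0.11 did not pass the threshold of 0.05 (adjusted p = 0.06), and it passed in 4 of the 7 other ways of fitting and without doxycycline replicate 3. Between consecutive times, MYC was higher at day 6 than at day 3, with a log2 fold change of 0.92 ± 0.11 (adjusted p = 2.4e-06), and lower at day 9 than at day 6, with one of -1.26 ± 0.11 (adjusted p = 1.2e-08). In parental cells without doxycycline MYC rose by 0.54 ± 0.11 (adjusted p = 0.00056), and by 0.37 without the third library. The rise at day 6 did not differ past the threshold from this parental rise, with a difference of 0.07 ± 0.15 (adjusted p = 0.81). With doxycycline in both lines, MYC did not differ past the threshold, at 0.10 ± 0.11 (adjusted p = 0.59). In bulk RNA, fewer cells of a type and less RNA per cell cannot be told apart.

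MYCN, the paralog best known from the developing nervous system and neuroblastoma, was present at a low level. It had 6.56, 7.11 and 5.87 CPM with doxycycline in the SARS2 line, 4.94, 5.80 and 4.86 CPM in libraries labelled day 3, 7.51, 9.09 and 8.60 CPM in those labelled day 6 and 3.78, 3.29 and 3.38 CPM in those labelled day 9. As for MYC, the libraries labelled day 6 were the highest and those labelled day 9 the lowest of the line, with no overlap with doxycycline. MYCN fell at day 9 by 0.90 ± 0.16 (log2, adjusted p = 0.00015, edgeR), and was lower at day 9 than at day 6, with a log2 fold change of -1.27 ± 0.16 (adjusted p = 1.6e-06). The day 6 value against doxycycline, 0.37 ± 0.16, did not pass (adjusted p = 0.092). In parental cells MYCN had 4.98, 6.27 and 3.62 CPM without doxycycline and 5.31, 4.41 and 5.53 CPM with it, groups that overlapped, and its log2 fold change of -0.04 ± 0.16 changed sign when single libraries were left out.

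MAX, the partner of every other DNA-binding protein of the network, took another course. It had 56.8, 56.6 and 58.5 CPM with doxycycline in the SARS2 line, 63.4, 68.3 and 67.5 CPM in libraries labelled day 3, 72.5, 75.1 and 73.5 CPM in those labelled day 6 and 76.6, 81.4 and 78.2 CPM in those labelled day 9. The levels of the 4 groups did not overlap and stood in the order of time. MAX rose at day 6 by 0.36 ± 0.07 (log2, adjusted p = 0.00063, edgeR) and at day 9 by 0.46 ± 0.07 (adjusted p = 2e-05), while the rise at day 3 by 0.21 ± 0.07 (adjusted p = 0.045) was lost in 5 of 6 fits that left out 1 library and with no filter on low counts. Steps between consecutive times after day 3 did not pass, at 0.15 ± 0.07 for day 6 against day 3 (adjusted p = 0.081) and 0.09 ± 0.07 for day 9 against day 6 (adjusted p = 0.24). With doxycycline, MAX had the 56.6 to 58.5 CPM above in the SARS2 line against 69.5 to 72.5 CPM in parental cells, and was lower in the SARS2 line by 0.31 ± 0.07, with a log2 fold change of -0.31 (adjusted p = 0.0033). Its levels in the libraries labelled day 6 and day 9 were thus at or above the top of the parental range with doxycycline. FNTB overlaps MAX on the other strand and averaged 2.02 CPM.

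The ratio of MYC to its partner and rivals was described per length, without a test. MYC stood at 12.4 to 15.4 times the TPM of MAX with doxycycline in the SARS2 line, 9.18 to 11.0 times in libraries labelled day 3, 15.8 to 17.8 times in those labelled day 6 and 6.00 to 7.35 times in those labelled day 9. Against the summed TPM of MXD1, MXD3, MXD4, MNT and MGA, MYC stood at 5.47 to 6.00 times with doxycycline, 4.95 to 5.45 times in libraries labelled day 3, 7.09 to 8.12 times in those labelled day 6 and 3.77 to 4.23 times in those labelled day 9. MYC mRNA exceeded this sum in all 18 libraries, and the libraries labelled day 9 held the lowest ratio. The sum leaves out MXI1, an MXD family gene outside the set, which averaged 30.7 CPM in libraries labelled day 9 and 64.5 CPM with doxycycline in the SARS2 line. In parental cells the ratio to the antagonists was 5.95, 6.05 and 10.5 without doxycycline and 6.51, 6.52 and 6.13 with it, so that only the third library without doxycycline stood above the others. The parental ratio to MAX was 15.0, 16.3 and 17.7 without doxycycline and 10.9, 11.3 and 10.3 with it, without overlap.

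Among the antagonists, MXD1, the founding member of the MXD family and best known from differentiating cells, changed most at day 6 and in parental cells. It had 15.9, 14.9 and 12.1 CPM with doxycycline in the SARS2 line, 15.2, 12.5 and 12.2 CPM in libraries labelled day 3, 20.6, 37.9 and 22.8 CPM in those labelled day 6 and 19.4, 17.1 and 15.5 CPM in those labelled day 9. The second library labelled day 6 stood far above the others, and the groups labelled day 6 and doxycycline did not overlap. MXD1 rose at day 6 by 0.92 ± 0.17 (log2, adjusted p = 0.00052, edgeR), or by 0.59 (adjusted p = 0.0025) without that library. It did not pass against doxycycline at day 3, with a log2 fold change of -0.11 ± 0.17 (adjusted p = 0.73), or day 9, with one of 0.27 ± 0.17 (adjusted p = 0.19). It was lower at day 9 than at day 6, with a log2 fold change of -0.65 ± 0.17 (adjusted p = 0.0025), which became -0.31 (adjusted p = 0.04) without that library. In parental cells MXD1 had 22.1, 20.1 and 20 CPM without doxycycline and 9.53, 9.41 and 9.67 CPM with it. This 2.18-fold rise, 1.12 ± 0.17 on the log2 scale (adjusted p = 4.6e-05), was larger than the spread between replicates and was called without any single library. ASPRV1 overlaps MXD1 on the other strand and averaged 4.58 CPM.

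MXD3, a family member known from proliferating progenitors, had 68.4, 64.1 and 56.7 CPM with doxycycline in the SARS2 line, 48.4, 49.2 and 47.1 CPM in libraries labelled day 3, 64.4, 85.5 and 71.9 CPM in those labelled day 6 and 53.7, 60.8 and 40.4 CPM in those labelled day 9. The groups labelled day 6 and day 3 did not overlap. MXD3 was higher by 0.62 ± 0.16 at day 6 than at day 3 (log2, adjusted p = 0.0038, edgeR), whereas against doxycycline its log2 fold changes, -0.39 ± 0.16 at day 3, 0.23 ± 0.16 at day 6 and -0.29 ± 0.16 at day 9, did not pass, with adjusted p of 0.11, 0.3 and 0.14 in that order. The value for day 9 against day 6, -0.52 ± 0.16 (adjusted p = 0.0081), did not pass when day 6 replicate 2 (-0.39) or day 9 replicate 3 (-0.37) was left out. In parental cells it had 71.8, 77.6 and 45.3 CPM without doxycycline and 46.0, 45.3 and 44.4 CPM with it, and the third library without doxycycline lay at the level of those with it. The parental rise of 0.52 ± 0.16 (adjusted p = 0.013) was lost without the first or second library without doxycycline. MXD3 counts are uncertain for a further reason: PRELID1 overlaps its 3' part on the other strand and averaged 220 CPM. The headers of the counts carry the letters RF, unexplained, and no source used here gives the strand setting of the counting. PRELID1 moved the other way in these groups, with 302, 290 and 337 CPM in libraries labelled day 9 against 209, 203 and 230 CPM with doxycycline.

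MXD4, found in both cycling and resting cells, had 36.5, 34.6 and 34.6 CPM with doxycycline in the SARS2 line, 31.0, 31.4 and 28.1 CPM in libraries labelled day 3, 37.5, 36.5 and 35.9 CPM in those labelled day 6 and 28.4, 29.6 and 24.8 CPM in those labelled day 9. Libraries labelled day 3 and day 9 lay below all those with doxycycline. MXD4 fell at day 9 by 0.35 ± 0.08 (log2, adjusted p = 0.0015, edgeR), and the day 3 value of -0.22 ± 0.08 did not pass (adjusted p = 0.076). It was lower at day 9 than at day 6, with a log2 fold change of -0.41 ± 0.08 (adjusted p = 0.00025). In parental cells MXD4 had 41.4, 44.1 and 36.7 CPM without doxycycline and 30.6, 30.1 and 33.3 CPM with it, without overlap, and rose by 0.38 ± 0.08 (adjusted p = 0.0011).

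MNT, the antagonist that most cells express alongside MYC, was the 1 gene of the set that passed in no comparison. Its 18 values ran from 37.9 to 49.5 CPM, a 1.31-fold range, and its group means from 41.4 ± 1.14 CPM in parental cells with doxycycline to 47.2 ± 1.49 CPM in libraries labelled day 9 (SD, n = 3). Its log2 fold changes against doxycycline were 0.14 ± 0.08 at day 6 (adjusted p = 0.21, edgeR) and 0.16 ± 0.08 at day 9 (adjusted p = 0.11), and its lowest unadjusted p was 0.059. DESeq2 did not call it either. MGA, the largest protein of the network, pairs with MAX and also belongs to the PRC1.6 Polycomb complex. It had 61.8, 67.1 and 65.5 CPM with doxycycline in the SARS2 line, 86.7, 83.5 and 82.9 CPM in libraries labelled day 3, 61.9, 56.9 and 61.2 CPM in those labelled day 6 and 72.6, 73.2 and 82.1 CPM in those labelled day 9. The MGA levels of libraries labelled day 3 and day 9 lay above all those with doxycycline. MYC levels at both times lay below all those with doxycycline, though the day 3 value of MYC did not pass (adjusted p = 0.06, edgeR).

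MGA rose at day 3 by 0.38 ± 0.08 (log2, adjusted p = 0.0049, edgeR) and was lower at day 6 than at day 3, with a log2 fold change of -0.49 ± 0.08 (adjusted p = 7.3e-05). The rise at day 9 by 0.23 ± 0.08 (adjusted p = 0.024) was lost when libraries were scaled by size alone (0.17), without doxycycline replicate 1 (0.20) and without day 9 replicate 3 (0.17), and was 0.47 with the trend over gene span and length removed. In parental cells MGA had 56.4, 60.4 and 72.6 CPM without doxycycline and 78.9, 86.9 and 84.2 CPM with it, and its log2 fold change was -0.40 ± 0.08 (adjusted p = 0.00061). With doxycycline it was lower in the SARS2 line than in parental cells, with a log2 fold change of -0.36 ± 0.08 (adjusted p = 0.0033) and no overlap between the groups.

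FBXW7 had 28.3, 30.1 and 29.4 CPM with doxycycline in the SARS2 line, 33.4, 31.3 and 30.2 CPM in libraries labelled day 3, 31.7, 34.4 and 32.8 CPM in those labelled day 6 and 25.4, 23.4 and 32.8 CPM in those labelled day 9. The third library labelled day 9 stood at the level of those labelled day 6, and the first and second stood below all others. None of its comparisons with doxycycline passed, with log2 fold changes of 0.11 ± 0.09 at day 3, 0.17 ± 0.09 at day 6 and -0.11 ± 0.09 at day 9 and edgeR's adjusted p of 0.48, 0.19 and 0.39 in that order. The log2 fold change for day 9 against day 6, -0.28 ± 0.09 (adjusted p = 0.017), did not pass in the fit on only the groups compared or when day 6 replicate 2, day 9 replicate 1 or day 9 replicate 2 was left out, and turned to 0.34 with the trend over span and length removed. No direction is given for FBXW7 on these values.

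**Figure D2:**
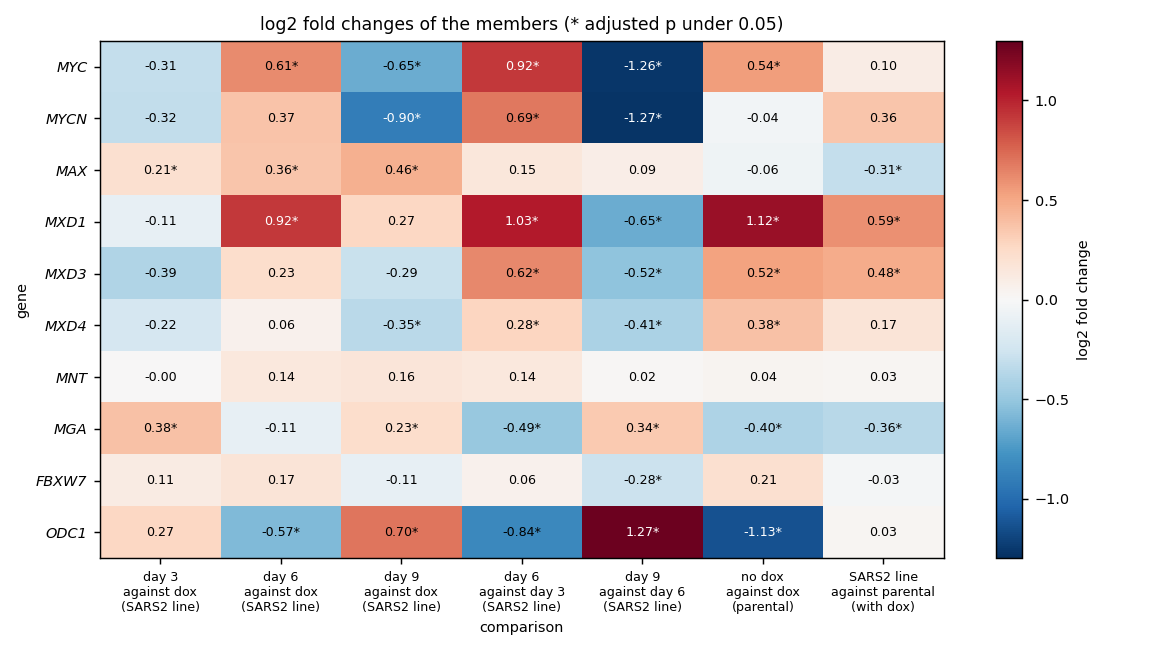
Rows are the 10 genes and columns 7 comparisons, with the log2 fold change in each cell, positive where the first-named group is higher; an asterisk marks an adjusted p under 0.05. MYC and ODC1 have opposite signs in the first 6 columns and MNT has no asterisk.

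ODC1 encodes ornithine decarboxylase, the rate-limiting enzyme of polyamine synthesis and a textbook direct target of MYC. It had 392, 423 and 498 CPM with doxycycline in the SARS2 line, 519, 533 and 531 CPM in libraries labelled day 3, 333, 258 and 294 CPM in those labelled day 6 and 708, 621 and 811 CPM in those labelled day 9. Libraries labelled day 6 were below, and those labelled day 3 and day 9 above, all 3 with doxycycline. In parental cells ODC1 had 214, 204 and 171 CPM without doxycycline and 422, 411 and 456 CPM with it, again without overlap.

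Against doxycycline, ODC1 fell at day 6 by 0.57 ± 0.11 (log2, adjusted p = 0.00068, edgeR) and rose at day 9 by 0.70 ± 0.11 (adjusted p = 2.7e-05), while the day 3 value of 0.27 ± 0.11 did not pass (adjusted p = 0.1). It was 2.42-fold higher at day 9 than at day 6 (log2 fold change 1.27 ± 0.11, adjusted p = 1.1e-08). In parental cells without doxycycline it fell by 1.13 ± 0.11 on the log2 scale (adjusted p = 5.4e-07). In each comparison where both genes passed, ODC1 and MYC moved in opposite directions. These comparisons share control libraries and are not independent of each other. With doxycycline ODC1 did not differ past the threshold between the lines, at 0.03 ± 0.11 (adjusted p = 0.89).

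**Figure D3:**
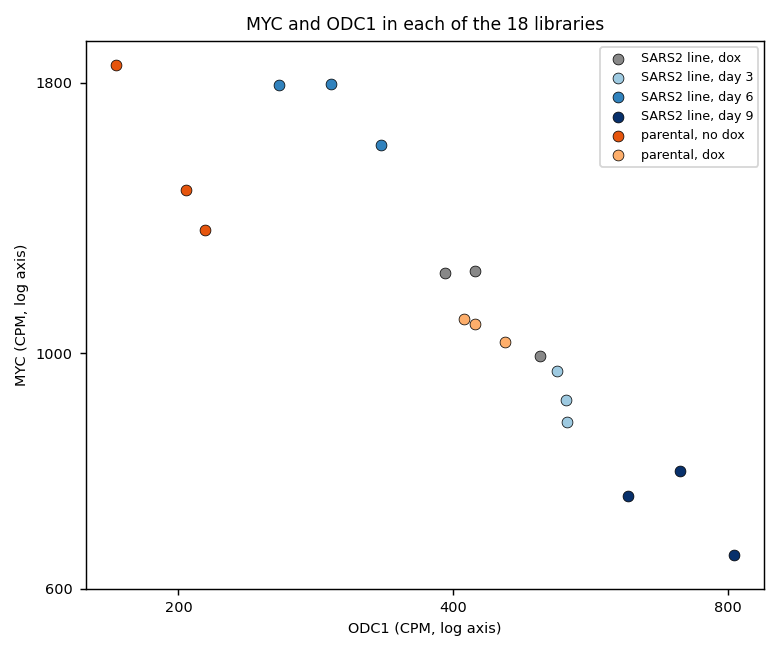
Each point is 1 of the 18 libraries, with ODC1 in CPM on the horizontal log axis and MYC in CPM on the vertical log axis, coloured by group. Libraries labelled day 9 lie at the lower right with MYC at 645 to 774 CPM and ODC1 at 621 to 811 CPM, and parental libraries without doxycycline at the upper left with ODC1 at 171 to 214 CPM.

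Promoter windows of 250 bases before to 50 bases after a transcription start were searched for the E-box CACGTG, which reads the same on both strands. RefSeq windows (GRCh38.p14) were at hand for 9 of the 10 genes, 16 windows in all. MYC was the gene without a window, so its promoter was not searched. The 3 genes with a match are printed here to show where the motif, in capitals, lies in each. Each sequence runs 5′ to 3′ from 250 bases before the start to 15 bases after it.
ODC1, chr2:10447998-10448262, minus strand: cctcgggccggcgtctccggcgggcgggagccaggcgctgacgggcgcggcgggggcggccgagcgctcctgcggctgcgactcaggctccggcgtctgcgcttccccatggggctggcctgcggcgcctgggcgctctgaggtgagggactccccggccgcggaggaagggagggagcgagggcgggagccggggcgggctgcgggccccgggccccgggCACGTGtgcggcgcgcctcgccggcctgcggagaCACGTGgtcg
MXD4, chr4:2262095-2262359, minus strand: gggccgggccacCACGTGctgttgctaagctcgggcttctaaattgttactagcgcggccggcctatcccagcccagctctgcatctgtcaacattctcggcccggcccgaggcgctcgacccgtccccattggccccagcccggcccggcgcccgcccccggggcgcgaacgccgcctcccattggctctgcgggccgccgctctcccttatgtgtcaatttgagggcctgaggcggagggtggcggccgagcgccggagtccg
MNT, chr17:2401046-2401310, minus strand: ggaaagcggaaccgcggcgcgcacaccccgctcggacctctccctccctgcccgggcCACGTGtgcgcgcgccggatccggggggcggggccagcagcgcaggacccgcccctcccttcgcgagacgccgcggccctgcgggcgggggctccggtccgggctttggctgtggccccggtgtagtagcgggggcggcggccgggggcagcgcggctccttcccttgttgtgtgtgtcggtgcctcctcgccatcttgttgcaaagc
In ODC1 the window is the one of the downstream of 2 starts, and it holds the motif at 29 bases before and 5 bases after that start. MXD4 holds it 238 bases and MNT 193 bases before the start. At day 9 ODC1 rose and MXD4 fell, while MNT did not pass. Of 35116 promoter windows of this length 7.26% held CACGTG, and by gene 3 of 9 members held it, against 26 of 50 MYC-induced targets and 11.6% of 14347 tested genes. A match describes the letters and is not a bound site.

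Other genes of polyamine metabolism were taken from a list of 22, of which 21 were tested. At day 9 against doxycycline 7 rose and 4 fell, where 46.4% of all tested genes passed, with a median log2 fold change of 0.06, against -0.01 over all tested genes. At day 6 none rose and 7 fell (median -0.14), where 28.1% of all tested genes passed and 14.0% fell. Parental cells without doxycycline had 3 higher and 9 lower (median -0.23), where 39.4% passed and 18.4% fell. The day 6 count was 4 without doxycycline replicate 3.

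SRM, spermidine synthase, moved in the direction of ODC1. It had 109, 108 and 116 CPM with doxycycline in the SARS2 line, 138, 143 and 145 CPM in libraries labelled day 3, 96.5, 80.8 and 89.3 CPM in those labelled day 6 and 199, 176 and 243 CPM in those labelled day 9. These 4 groups did not overlap. SRM rose at day 9 by 0.89 ± 0.10 (log2, adjusted p = 1.2e-06, edgeR) and fell in parental cells without doxycycline by 1.14 ± 0.10 (adjusted p = 3.1e-07). ADI1, of the methionine salvage pathway that recycles the by-product of polyamine synthesis, rose at day 9 by 1.22 ± 0.11 (adjusted p = 9.9e-08) with 131, 130 and 129 CPM in libraries labelled day 9 against 48.0, 52.1 and 68.1 CPM with doxycycline. EIF5A, the translation factor that carries the spermidine-derived residue hypusine, fell at day 6 by 0.52 ± 0.10 (adjusted p = 0.001) and in parental cells without doxycycline by 1.06 ± 0.10 (adjusted p = 6.8e-07). DHPS, also on the list, moved against ODC1 at day 9. It fell there by 0.48 ± 0.09 (adjusted p = 0.00015), with means of 63.3 CPM against 88.6 CPM with doxycycline.

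SAT1, the acetyltransferase that starts polyamine breakdown, moved against ODC1. It had 47.2, 43.2 and 39.4 CPM with doxycycline in the SARS2 line, 31.8, 30.8 and 27.4 CPM in libraries labelled day 3, 48.7, 62.5 and 49.6 CPM in those labelled day 6 and 23.9, 29.1 and 17.8 CPM in those labelled day 9. SAT1 fell at day 3 by 0.53 ± 0.13 (log2, adjusted p = 0.013, edgeR) and at day 9 by 0.87 ± 0.13 (adjusted p = 2.4e-05), and rose in parental cells without doxycycline by 0.85 ± 0.13 (adjusted p = 5.1e-05). The antizyme OAZ2, which binds ornithine decarboxylase and sends it to the proteasome, fell at day 6 by 0.44 ± 0.05 (adjusted p = 9.7e-06). OAZ1 fell at day 6 by 0.16 ± 0.06 (adjusted p = 0.044) and rose at day 9 by 0.24 ± 0.06 (adjusted p = 0.0022). AZIN1, the antizyme inhibitor, did not pass, with log2 fold changes of 0.01 ± 0.09 at day 6 and -0.11 ± 0.09 at day 9 and adjusted p of 0.96 and 0.35 in that order.

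**Figure D4:**
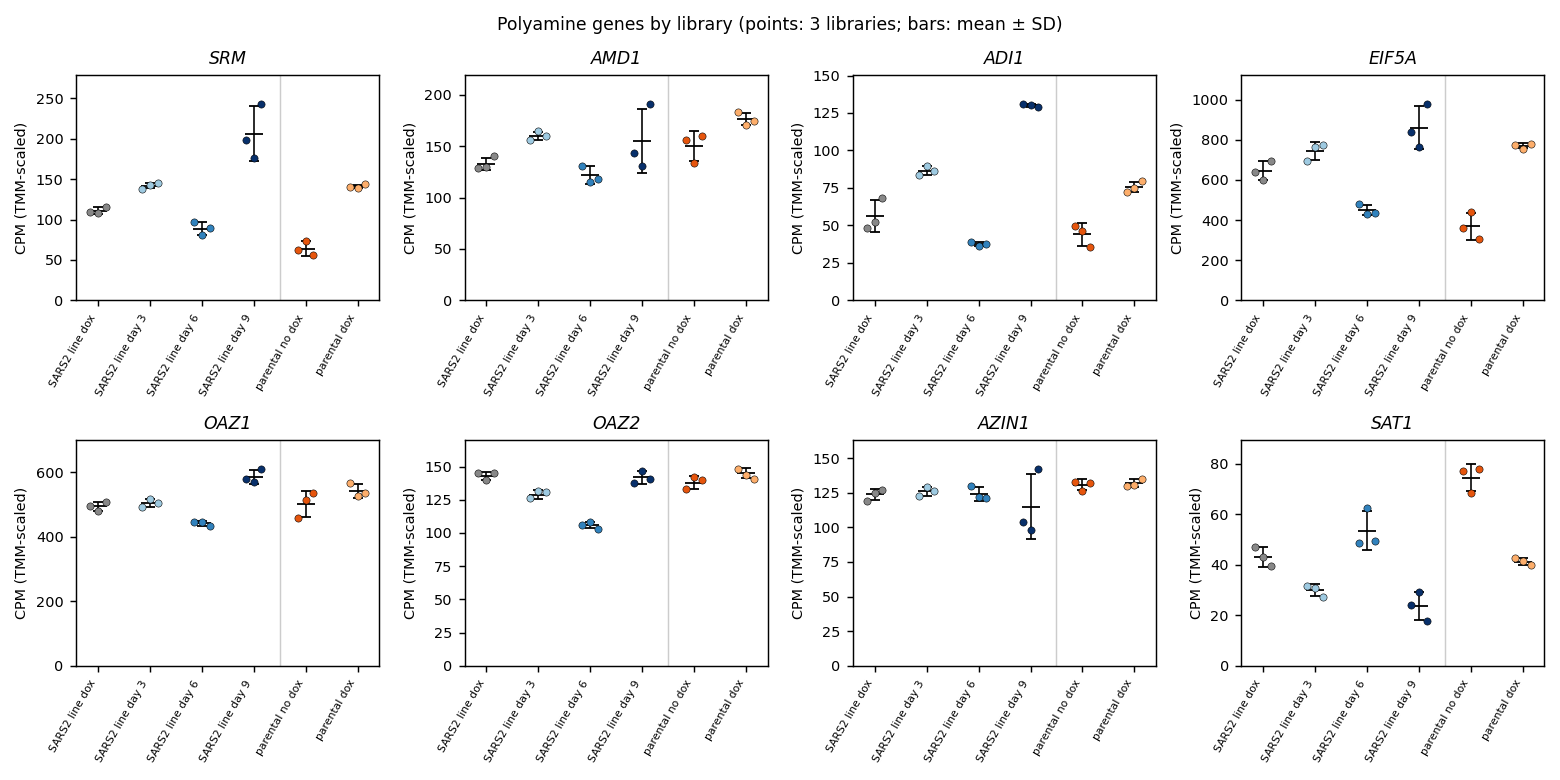
Each panel shows 1 polyamine gene in CPM on a linear axis from 0, with the SARS2 line in order of time on the left and the parental line on the right; points are the 3 libraries of a group and bars give the mean and SD. SRM reaches 176 to 243 CPM in libraries labelled day 9 while SAT1 falls to 17.8 to 29.1 CPM there.

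Established MYC-induced targets, a list of 59 genes many of them of ribosome assembly, moved in the direction of ODC1 and against MYC mRNA. At day 9 against doxycycline 46 of 59 rose and 2 fell, with a median log2 fold change of 0.44, where 22.6% of all tested genes rose. At day 6 against doxycycline 33 fell and 1 rose, with a median of -0.27, where 14.0% of all tested genes fell. In parental cells without doxycycline 53 fell and 1 rose, with a median of -0.46, where 18.4% of all tested genes fell. The medians over all tested genes lay between -0.01 and 0.03 in these comparisons.

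IPO4, an importin that carries ribosomal proteins, rose at day 9 by 1.16 ± 0.10 (log2, adjusted p = 3.3e-08, edgeR), with a mean of 239 CPM against 107 CPM with doxycycline. CAD, which starts pyrimidine synthesis, rose at day 9 by 0.79 ± 0.07 (adjusted p = 7.2e-08), and it was the 1 target that rose at day 6, by 0.19 ± 0.07 with an adjusted p that rounds to 0.05. LDHA, lactate dehydrogenase A, fell at day 6 by 0.74 ± 0.08 (adjusted p = 2.4e-06), with a mean of 507 CPM against 848 CPM with doxycycline. CDK4, the G1 cyclin-dependent kinase, fell in parental cells without doxycycline by 0.96 ± 0.08 (adjusted p = 1.4e-07). SLC29A2, a nucleoside transporter, fell at both day 6 and day 9, by 0.61 ± 0.08 (adjusted p = 2.8e-05) and 0.50 ± 0.08 (adjusted p = 5.4e-05). PLK4, the kinase of centriole duplication, was the other target that fell at day 9, by 0.23 ± 0.09 (adjusted p = 0.038).

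At day 3 against doxycycline 17 targets rose and none fell, with a median log2 fold change of 0.20, where 6.50% of all tested genes rose. That count depended on single libraries, and was 6 without doxycycline replicate 1, 8 without doxycycline replicate 2, 8 without day 3 replicate 2 and 7 without day 3 replicate 3. The day 6 count of 34 called targets was 20 without doxycycline replicate 3, 21 without day 6 replicate 2 and 22 with the trend over span and length removed, with at most 1 of them higher. At day 9 against day 6, 54 targets were higher and 1 lower (median 0.73), where 28.6% of all tested genes were higher. At day 6 against day 3, 51 were lower and none higher (median -0.50), where 20.8% of all tested genes were lower. With doxycycline, 28 targets were lower and none higher in the SARS2 line than in parental cells (median -0.28), where 9.97% of all tested genes were lower, although MYC and ODC1 did not pass there. That count was 14 without SARS2 line doxycycline replicate 1 or 2 and 17 without parental doxycycline replicate 3.

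**Figure D5:**
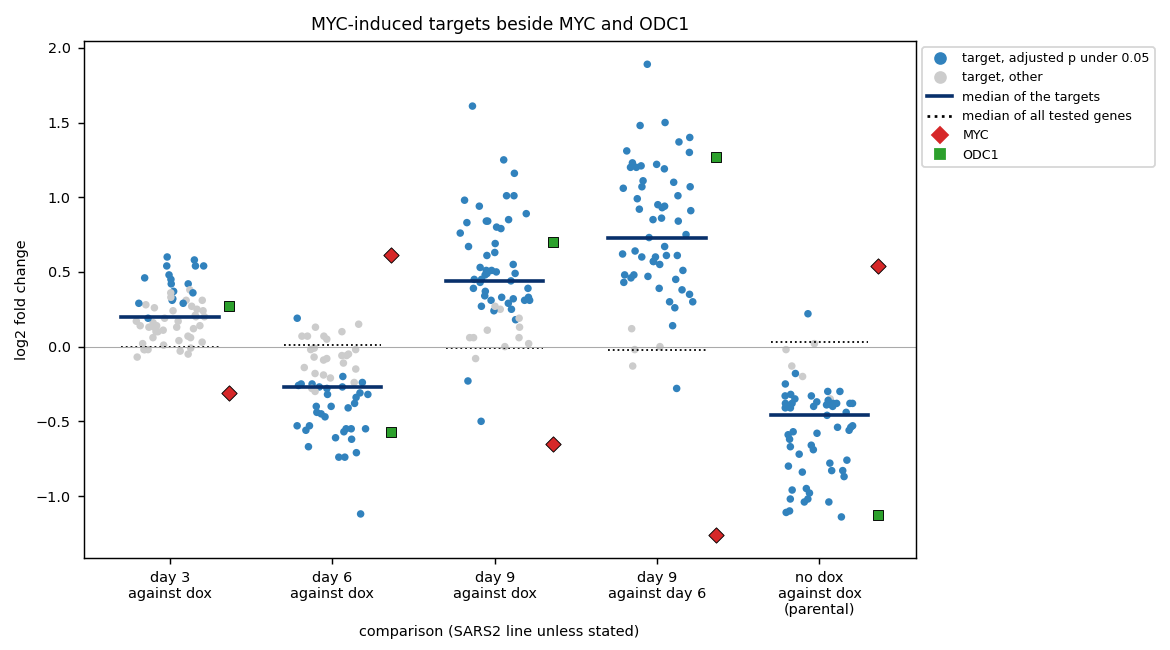
Each dot is 1 of the 59 MYC-induced targets in 1 of 5 comparisons, with its log2 fold change on the vertical axis, coloured where the adjusted p is under 0.05; the solid bar is the median of the targets, the dotted bar that of all tested genes, the diamond MYC and the square ODC1. The medians of the targets, 0.20, -0.27, 0.44, 0.73 and -0.46 from left to right, have the sign of ODC1 and not of MYC.

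Genes that MYC is known to repress, a list of 14, did not move one way at day 9, where 4 rose and 5 fell against doxycycline (median 0.04) and 46.4% of all tested genes passed. In parental cells without doxycycline 4 rose and 1 fell (median 0.22), a share near the 39.4% of all tested genes that passed. TXNIP, a thioredoxin-binding protein that limits glucose uptake, had 180, 148 and 186 CPM without doxycycline and 19.8, 17.9 and 17.5 CPM with it in parental cells, a 9.3-fold rise (log2 fold change 3.22 ± 0.17, adjusted p = 7.6e-10, edgeR). In the SARS2 line TXNIP fell at day 3 by 1.5 ± 0.16 (adjusted p = 5.4e-05). NDRG1 rose in parental cells without doxycycline by 2.04 ± 0.23 (adjusted p = 2.8e-06) and fell at day 9 by 1.55 ± 0.23 (adjusted p = 2e-05). HBP1, a transcriptional repressor, fell at day 9 by 1.26 ± 0.14 (adjusted p = 1.3e-06), and CDKN1B, which encodes the cell cycle inhibitor p27, rose at day 6 by 0.47 ± 0.10 (adjusted p = 0.0017) and fell at day 9 by 0.59 ± 0.10 (adjusted p = 8.8e-05).

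The other members of the extended network were MYCL, MXI1, MLX, MLXIP and MLXIPL. MXI1, the MXD family gene outside the set, had 29.6, 35.9 and 26.5 CPM in libraries labelled day 9 against 66.7, 63.1 and 63.8 CPM with doxycycline, and fell by 1.07 ± 0.09 (log2, adjusted p = 2.3e-08, edgeR). MYCL fell at day 9 by 0.81 ± 0.11 (adjusted p = 7.1e-06) and rose at day 6 by 0.37 ± 0.11 (adjusted p = 0.014). MLX, the MAX-like partner of the glucose-sensing branch, rose at day 9 by 0.39 ± 0.07 (adjusted p = 0.00014), and its partner MLXIP rose by 0.47 ± 0.07 (adjusted p = 1.9e-05). All 5 thus passed at day 9, with 2 higher and 3 lower, where 46.4% of all tested genes passed.

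Of 19 cofactors and partners of MYC, 12 rose and 2 fell at day 9 against doxycycline (median log2 fold change 0.26), where 46.4% of all tested genes passed and 22.6% rose. KAT2A, an acetyltransferase, rose by 0.71 ± 0.07 (adjusted p = 1.8e-07, edgeR), and WDR5, which holds MYC on chromatin, by 0.66 ± 0.07 (adjusted p = 4.6e-07). The fall of MYCBP2 by 0.22 ± 0.09 (adjusted p = 0.048) turned to a rise of 0.18 with the trend over span and length removed. In parental cells without doxycycline 10 fell and 1 rose (median -0.28), where 39.4% of all tested genes passed and 18.4% fell. CDK9, the kinase of transcription elongation, fell there by 0.76 ± 0.09 (adjusted p = 3.3e-06). Of 18 corepressor partners of the MXD proteins, MNT and MGA, 7 rose and 3 fell at day 9 (median 0.05), where 46.4% of all tested genes passed. SIN3B, a scaffold that MXD proteins bind, rose by 0.42 ± 0.06 (adjusted p = 2.2e-05), and its paralog SIN3A fell by 0.15 ± 0.06 (adjusted p = 0.03). L3MBTL2, which shares the PRC1.6 complex with MGA, rose at day 9 by 0.58 ± 0.09 (adjusted p = 3.3e-05) and fell in parental cells without doxycycline by 0.54 ± 0.09 (adjusted p = 0.00011).

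Of 23 other genes of MYC protein turnover, 9 rose and 4 fell at day 9 against doxycycline (median 0.13), where 46.4% of all tested genes passed. USP28, the deubiquitinase that acts with FBXW7 on MYC, fell at day 9 by 0.55 ± 0.07 (log2, adjusted p = 1.8e-06, edgeR) and rose in parental cells without doxycycline by 0.43 ± 0.06 (adjusted p = 5e-05). PPP2R5A, the phosphatase subunit that removes the stabilising phosphate of MYC, fell at day 9 by 0.55 ± 0.11 (adjusted p = 0.00049). The SCF subunits SKP1 and RBX1 fell at day 6 by 0.40 ± 0.06 (adjusted p = 4.5e-05) and 0.44 ± 0.09 (adjusted p = 0.00099). These values describe mRNA, and MYC protein was not measured in the tables used.

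The count of members called in each comparison stands here beside the share of all tested genes called, with no test between them. At day 3 against doxycycline 2 of 10 passed, where 13.4% of all tested genes did, at day 6 4 of 10 (28.1%) and at day 9 6 of 10 (46.4%). At day 6 against day 3, 7 of 10 passed (42.7%), and at day 9 against day 6, 8 of 10 (58.8%). In parental cells without doxycycline 6 of 10 passed (39.4%), and between the lines with doxycycline 4 of 10 (19.3%), namely MAX, MXD1, MXD3 and MGA. Between the lines, the log2 fold changes of MXD1, 0.59 ± 0.17 (adjusted p = 0.02, edgeR), and MXD3, 0.48 ± 0.16 (adjusted p = 0.038), were each lost in 5 of 6 fits that left out 1 library. The response of the SARS2 line to withdrawal differed from that of parental cells for 7 of 10 members at day 3 (39.5% of all tested genes), 2 of 10 at day 6 (12.6%) and 8 of 10 at day 9 (51.7%).

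Genes with a profile most like a member over the 18 libraries were ranked by Pearson's r of log2 CPM among 11784 genes with a mean of at least 5 CPM, as a description, since libraries of a group share their condition. Nearest to MYC were MERTK (r = 0.978), MYO1E (0.978), MANBA (0.973), EML2 (0.972) and HPS4 (0.969). MERTK, a receptor tyrosine kinase, averaged 28.2 CPM in libraries labelled day 6 and 14.0 CPM in those labelled day 9. Nearest to ODC1 were DBN1 (0.986), HNRNPU (0.986), RRP9 (0.985), LOC728688 (0.984) and PRKAR1B (0.977), and of these RRP9, which processes ribosomal RNA, also stands in the list of MYC-induced targets. HNRNPU, a nuclear RNA-binding scaffold, averaged 1863 CPM in libraries labelled day 9, 829 CPM in those labelled day 6 and 647 CPM in parental cells without doxycycline. Nearest to MXD4 were SNTG2-AS1 (0.945), LHPP (0.944), LITAF (0.938), LOXL2 (0.934) and ZNF250 (0.933).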

How the data were processed

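The labels name total RNA and 151-bp paired-end libraries. The authors deposited counts per gene, made against GRCh38, with featureCounts of Subread, HISAT2, SAMtools, DESeq2 and cutadapt 2.3 among the tools that the submitters' notes on processing list without a role. The tables of 59251 genes hold exonic lengths and coordinates. Rows of 16 genes broken over lines were rejoined, and 6 libraries held in a second table were identical there. The 37 mitochondrial genes had 0 counts. All 18 libraries were fitted together with edgeR 4.0.16 (R 4.3.3): TMM scaling, filterByExpr, quasi-likelihood test, Benjamini-Hochberg adjustment over 21615 genes, called under 0.05. CPM use TMM-scaled library sizes, and TPM use the tables' lengths. The SE is the log2 fold change divided by the root of F. Intervals and tests cover these libraries only. Replicate numbers do not pair libraries across groups, with correlations of deviations from -0.0591 to 0.0506.

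The members and the gene lists were chosen with earlier results of these data known. Named genes are all members, and from each list up to 4 called genes per comparison with the smallest adjusted p and any moving against the majority; not all of these are printed. SRM, CBX3 and PLK1 stand in 2 lists each. The alternatives were DESeq2 1.42.0, its size factors, library size alone, no filter, only the groups compared, a replicate block, removal of a loess trend (span 0.3) over gene span and length, and leaving out each library. The main fit was run on simulated counts for 1 comparison, day 6 against doxycycline, with few changed genes and the same spread for every gene. That run does not measure error rates where replicates spread unevenly, as they did here.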

Additional observations from a re-analysis of the deposited data

Results flagged for a closer look

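For some members the response to withdrawal in the SARS2 line differed from the response of parental cells to having no doxycycline, by edgeR's test of the difference itself (the log2 fold change in the SARS2 line minus that in parental cells). At day 9 the difference was -1.19 for MYC (adjusted p = 2.4e-06), -0.87 for MYCN (adjusted p = 0.0034), 0.52 for MAX (adjusted p = 0.00015), -0.85 for MXD1 (adjusted p = 0.0057), -0.81 for MXD3 (adjusted p = 0.0049), -0.73 for MXD4 (adjusted p = 2.9e-05), 0.63 for MGA (adjusted p = 0.00012) and 1.83 for ODC1 (adjusted p = 2e-08). These 8 were called in every alternative fit and without each single library.

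At day 3 it was -0.85 for MYC (adjusted p = 0.00021), -1.23 for MXD1 (adjusted p = 0.00048), -0.91 for MXD3 (adjusted p = 0.0032), -0.60 for MXD4 (adjusted p = 0.00041), 0.78 for MGA (adjusted p = 3.1e-05) and 1.40 for ODC1 (adjusted p = 1.8e-06). For MAX it was 0.27 (adjusted p = 0.029), a call lost with library size alone, with no filter and in 7 of 12 fits that left out 1 library. At day 6 it was 0.43 for MAX (adjusted p = 0.0077) and 0.56 for ODC1 (adjusted p = 0.021), the second lost in 4 of 12 such fits. The day 6 differences of MYC, 0.07 ± 0.15 (adjusted p = 0.81), and MXD1, -0.20 ± 0.24 (adjusted p = 0.63), did not pass. That of MXD1 was called in 1 of 12 such fits, the one without day 6 replicate 2. Doses match, but the parental cells have no stated time without doxycycline, so time and line cannot be told apart in these differences. The 3 differences share the parental libraries and the doxycycline libraries of the SARS2 line.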

How the results depend on the processing

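Calls of MYC, ODC1 and MAX at day 6 and day 9, and of MYCN at day 9, against doxycycline held in all 7 alternative fits and without each library. MYCN at day 6, not called, was called in 2 of the 7. Fitting only the groups compared called 7 members, 6536 genes and 39 MYC-induced targets at day 3, and 7336 genes and 44 targets between the lines. At day 3, 4 members were called with no filter and 4 with the trend removed. Trend removal left 22 targets at day 6. For the day 6 difference between lines, targets called were 30 with library size alone, 30 with no filter, 32 with DESeq2 and 31 in the fit on only the groups compared, against 19.

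Signs turned with the trend over span and length removed for FBXW7 (-0.01 at day 6, 0.33 at day 9, -0.16 for day 6 against day 3, 0.34 for day 9 against day 6, and 0.08 and 0.26 for the day 3 and day 9 differences between lines), MYCBP2 (0.18) and NCOR1 (0.09) at day 9, MNT (-0.03 for day 9 against day 6, -0.02 in parental cells) and MYCN in parental cells (0.08). With library size alone they turned for MAX (-0.03) and MNT (-0.10) for day 9 against day 6, and MYCN in parental cells (0.01). The cause was not tested.

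Leaving out 1 library gave 1 to 3 members, 1088 to 2564 genes and 6 to 16 targets at day 3, 3834 to 5855 genes and 20 to 36 targets at day 6, 2 to 4 members, 2593 to 3846 genes and 14 to 30 targets between the lines, and 1 to 4 members, 1625 to 3301 genes and 11 to 29 targets for the day 6 difference between lines. Log2 fold changes then crossed 0 for MYCN in parental cells (-0.25 to 0.15), MYC (-0.02 to 0.24) and FBXW7 (-0.07 to 0.01) in the day 6 difference, ODC1 between lines (-0.08 to 0.10) and SARS2 at day 6 (-0.01 to 0.06). Those of MNT did so at day 3 against doxycycline (-0.07 to 0.05), in the day 3 difference (-0.12 to 0.01), between lines (-0.03 to 0.10), in parental cells (-0.01 to 0.11) and for day 9 against day 6 (-0.01 to 0.08). Library size alone moved the share of calls that were higher to 64.3% at day 6, against 50%, and to 38.6% for day 9 against day 6, against 48.7%, with the median of all genes there at -0.15 against -0.02. The replicate block, from numbers that do not pair the libraries, gave 9888 called genes at day 9 and changed no member's call. The list counts were added to these alternatives after seeing the data.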
